A study of Mus musculus with 18 samples.

Results

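The genes described are those for the proteins of the cytosolic ribosome. They were taken as every gene whose symbol is Rpl or Rps followed by a number, with or without a closing a, l or x and a digit, together with Rplp0, Rplp1, Rplp2 and Rpsa. Of the 27179 genes listed, 86 matched, and 82 of these had a mean of at least 10 over the 18 libraries and were tested. The 82 comprised 31 genes of the small (40S) subunit, 45 of the large (60S) subunit with 3 stalk proteins among them, 4 diverged copies (Rpl7l1, Rpl22l1, Rps27l and Rps4l) and 2 other symbols (Rpl6l, annotated as a pseudogene, and Rpl32l). The 4 below the limit were Rpl39, Rpl3l, Rpl39l and Rpl10l. Beyond this limit on the mean, no measured value entered the choice of the genes. Of 79 cytosolic ribosomal proteins listed from general knowledge, 77 matched by symbol and 76 were tested. Fau, which encodes a ribosomal protein fused to a ubiquitin-like domain, did not match and is given apart with Rack1 and Rpl36al.

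RNA was sequenced from cultures of mesenchymal stromal cells (MSCs) grown out of the bone marrow of male C57BL6 mice. Young MSCs came from mice of 6 weeks and old MSCs from mice of 18 to 24 months, and each group had 6 libraries. For the 6 rejuvenated old libraries, old MSCs had been kept for 7 days across a Transwell membrane from young MSCs, and its pores of 0.4 µm pass soluble factors. Cells were plated at 100000 per well. No old MSCs co-cultured with old MSCs were used here, so the presence of a partner layer and the age of that partner cannot be told apart. The titles call the 6 libraries of each group biological replicates and do not say whether they came from separate animals or separate cultures, so p-values measure the spread between these libraries.

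A cytosolic ribosome joins a small subunit, which reads the mRNA, to a large subunit, which forms the peptide bond. Each subunit holds ribosomal RNA and a fixed set of proteins, nearly all present as single copies, and cells tend to keep the proteins in proportion by degrading those that find no place. The mRNAs of ribosomal proteins are among the most abundant of growing cells. In vertebrates nearly all of them begin with a cap-adjacent C followed by a run of pyrimidines, the terminal oligopyrimidine (TOP) tract, through which mTOR and Larp1 set their translation and stability. RNA levels, which were measured here, leave that step of translation out.

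The tract is shown because it is the sequence feature that ribosomal protein mRNAs share. The lines give the first 20 bases of annotated mRNAs from GENCODE M21 (build GRCm38), all at the start of exon 1, with a C at the first base and the pyrimidines that follow it in capitals. The 6 genes were picked for their starts after their values were seen. Rps24 (chr14:24490718-24490737, plus strand) and Rpl32 (chr6:115808728-115808747, minus strand) were higher in both rejuvenated old and young MSCs than in old MSCs. Rpl37 (chr15:5116645-5116664, plus strand) and Rpl29 (chr9:106429538-106429557, plus strand) begin alike and moved in opposite directions in young MSCs. Rps2 (chr17:24720110-24720129, plus strand) has a long tract and was lower in young than in old MSCs. Rplp0 (chr5:115559467-115559486, plus strand) has no tract at this annotated start and moved little. Rplp2 and Rpl28, whose starts are not printed, have no tract at their annotated starts either. Their log2 fold changes in young against old MSCs were 1.73 and 1.63.
Rps24: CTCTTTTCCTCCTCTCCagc
Rpl32: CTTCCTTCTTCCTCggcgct
Rpl37: CTCTTCCggtctctttggcc
Rpl29: CTCTTCCggtctccggcgct
Rps2: CTTCTTCTTCTTCgggagaa
Rplp0: ggaccgcctggttctcctat
A tract was defined as a C at the annotated first base followed by at least 4 bases that are each C or T, read on the mRNA strand only. It opened at least 1 annotated protein-coding transcript of 22 of the 79 tested genes with a GENCODE sequence (27.8%). Among the other genes tested it opened one for 749 of 13041 (5.74%). With the tract allowed to begin up to 10 bases further in, the counts were 46 of 79 (58.2%) and 4714 of 13041 (36.1%). In the RefSeq table of promoters (GRCm38.p6) only 60 of the 82 genes had an entry, under the 80% needed for a share, and that check was void. The median log2 fold change of rejuvenated old against old MSCs was 0.30 for the 22 genes with the tract and 0.26 for 55 of the genes without it, and for young against old MSCs it was 0.93 and 0.64. These medians are a description of annotated starts, with no test. Nearly all these mRNAs are known to carry the tract, so its absence at an annotated start does not show that the mRNA lacks it.

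The libraries held 22936251 to 29559194 reads on genes. The values are the authors' normalized counts, that is, reads divided by 1 size factor per library, and all tests were made with limma on log2(value + 1) with p adjusted by the Benjamini-Hochberg method over 14353 genes. A gene is called higher or lower where its adjusted p is under 0.05. Rejuvenated old replicates 1, 5 and 6 stood apart. Replicate 1 held 42.2 of Rps4l and 21.6 of Thy1, a stromal surface marker picked after its values were seen, which lay at 0 to 3.23 in the old libraries and at 0 to 0.951 in the other 5 rejuvenated old libraries. In young MSCs Thy1 lay at 175 to 227. Replicate 6 had the smallest shift of ribosomal protein genes and replicate 5 the largest. Counts of ribosomal protein genes are therefore also given without such libraries. All 12 stromal markers, Thy1 among them, were detected, with 5 higher and 7 lower in young than in old MSCs and 3 higher and 6 lower in rejuvenated old MSCs. Their summed values, most of which fell on Col1a1, Col1a2 and Cxcl12, were 322363 to 348916 (young), 444860 to 471001 (old) and 435493 to 467784 (rejuvenated old). The 12 macrophage markers summed to 693 to 782 in young libraries, where Ptprc and Adgre1 were at 0, to 16206 to 20256 in old libraries and to 16237 to 19792 in rejuvenated old libraries. All 12 were lower in young than in old MSCs, and 1 was higher and 1 lower in rejuvenated old MSCs. In young against old MSCs all 6 osteoblast markers (median log2 fold change -3.83) and all 5 tested adipocyte markers (median -4.89) were also lower, and both tested endothelial markers were higher. In rejuvenated old MSCs 1 osteoblast marker was higher (0 without replicate 1 or 6) and 4 lower, 3 adipocyte markers were higher and 1 lower (0 without replicate 1), and 1 endothelial marker was lower (0 without replicate 6). The erythroid and lymphocyte markers lay below the limit for testing. In bulk RNA a change in the mix of cells and a change of RNA per cell cannot be told apart, and the part of these markers in the values of the ribosomal protein genes was not tested.

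Ribosomal protein genes took a larger share of all reads in rejuvenated old than in old MSCs, and a larger one still in young MSCs. The 82 genes summed to 3.02% to 3.18% of all values in the old libraries (3.13% ± 0.07, SD, n = 6), to 3.32% to 4.09% in the rejuvenated old libraries (3.67% ± 0.26) and to 5.06% to 5.69% in the young libraries (5.30% ± 0.28). No library of one group reached the range of another. Without rejuvenated old replicate 1 the mean of that group was 3.70% ± 0.28 (n = 5). The 31 genes of the 40S subunit took 1.19% ± 0.03 in old, 1.43% ± 0.11 in rejuvenated old and 2.09% ± 0.12 in young MSCs. The 45 genes of the 60S subunit took 1.90% ± 0.036, 2.21% ± 0.15 and 3.16% ± 0.16 in the same order. The sum of the 40S genes divided by that of the 60S genes was 0.625 ± 0.0072 in old MSCs (0.614 to 0.634), 0.648 ± 0.0059 in rejuvenated old MSCs (0.642 to 0.658) and 0.662 ± 0.0058 in young MSCs (0.658 to 0.673). On this ratio the old libraries lay below all others, and the rejuvenated old and young libraries overlapped.

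**Figure D1:**
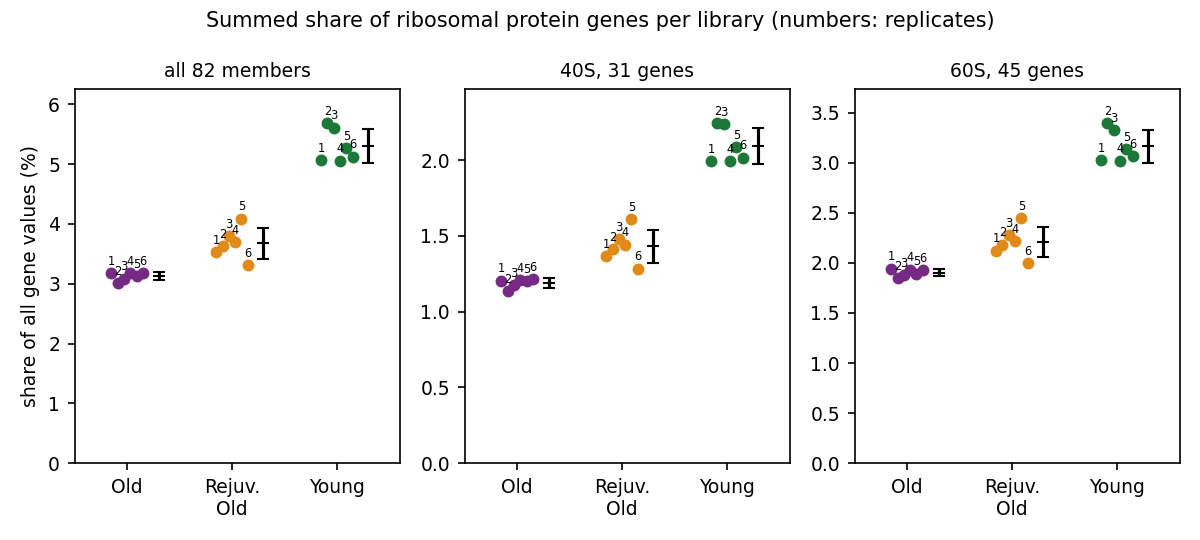
Share of all gene values (%) that fell on ribosomal protein genes in each library, for the 82 genes together, the 31 of the 40S and the 45 of the 60S subunit. Points are libraries with their replicate number, and black bars show the mean ± SD of 6 libraries. For the 82 genes the old libraries sit at 3.02% to 3.18%, the rejuvenated old at 3.32% to 4.09% and the young at 5.06% to 5.69%.

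Rejuvenated old against old MSCs asks what 7 days with young MSCs did to old MSCs. Of the 82 genes, 74 were higher and 0 lower in rejuvenated old MSCs. Rps4l, which passed the limit on the mean through the young libraries, is among the 74 as a description only. Of all 14353 genes tested 41.6% were called, 21.0% as higher. Of the 3127 genes whose mean reached 2000, which include all but 4 of the ribosomal protein genes, 28.1% were higher. The rises were small. The median log2 fold change was 0.28, that is 1.21-fold, with quartiles of 0.21 and 0.31, beside a median of 0.0081 over all genes tested. At an unadjusted p under 0.05 limma gave 75 higher and 0 lower. At an adjusted p under 0.05 DESeq2 on the recovered reads gave 74 and 0, and edgeR 75 and 0. For 48 genes the lowest rejuvenated old library exceeded the highest old library, and for 0 genes the reverse held. Over all genes these shares were 10.4% and 11.6%. Without rejuvenated old replicate 6, 77 genes were higher and 69 lay apart (12.3% of all genes). Without replicate 1, 74 were higher and 48 apart (11.9%). Without replicate 5, 48 lay apart (11.3%).

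**Figure D2:**
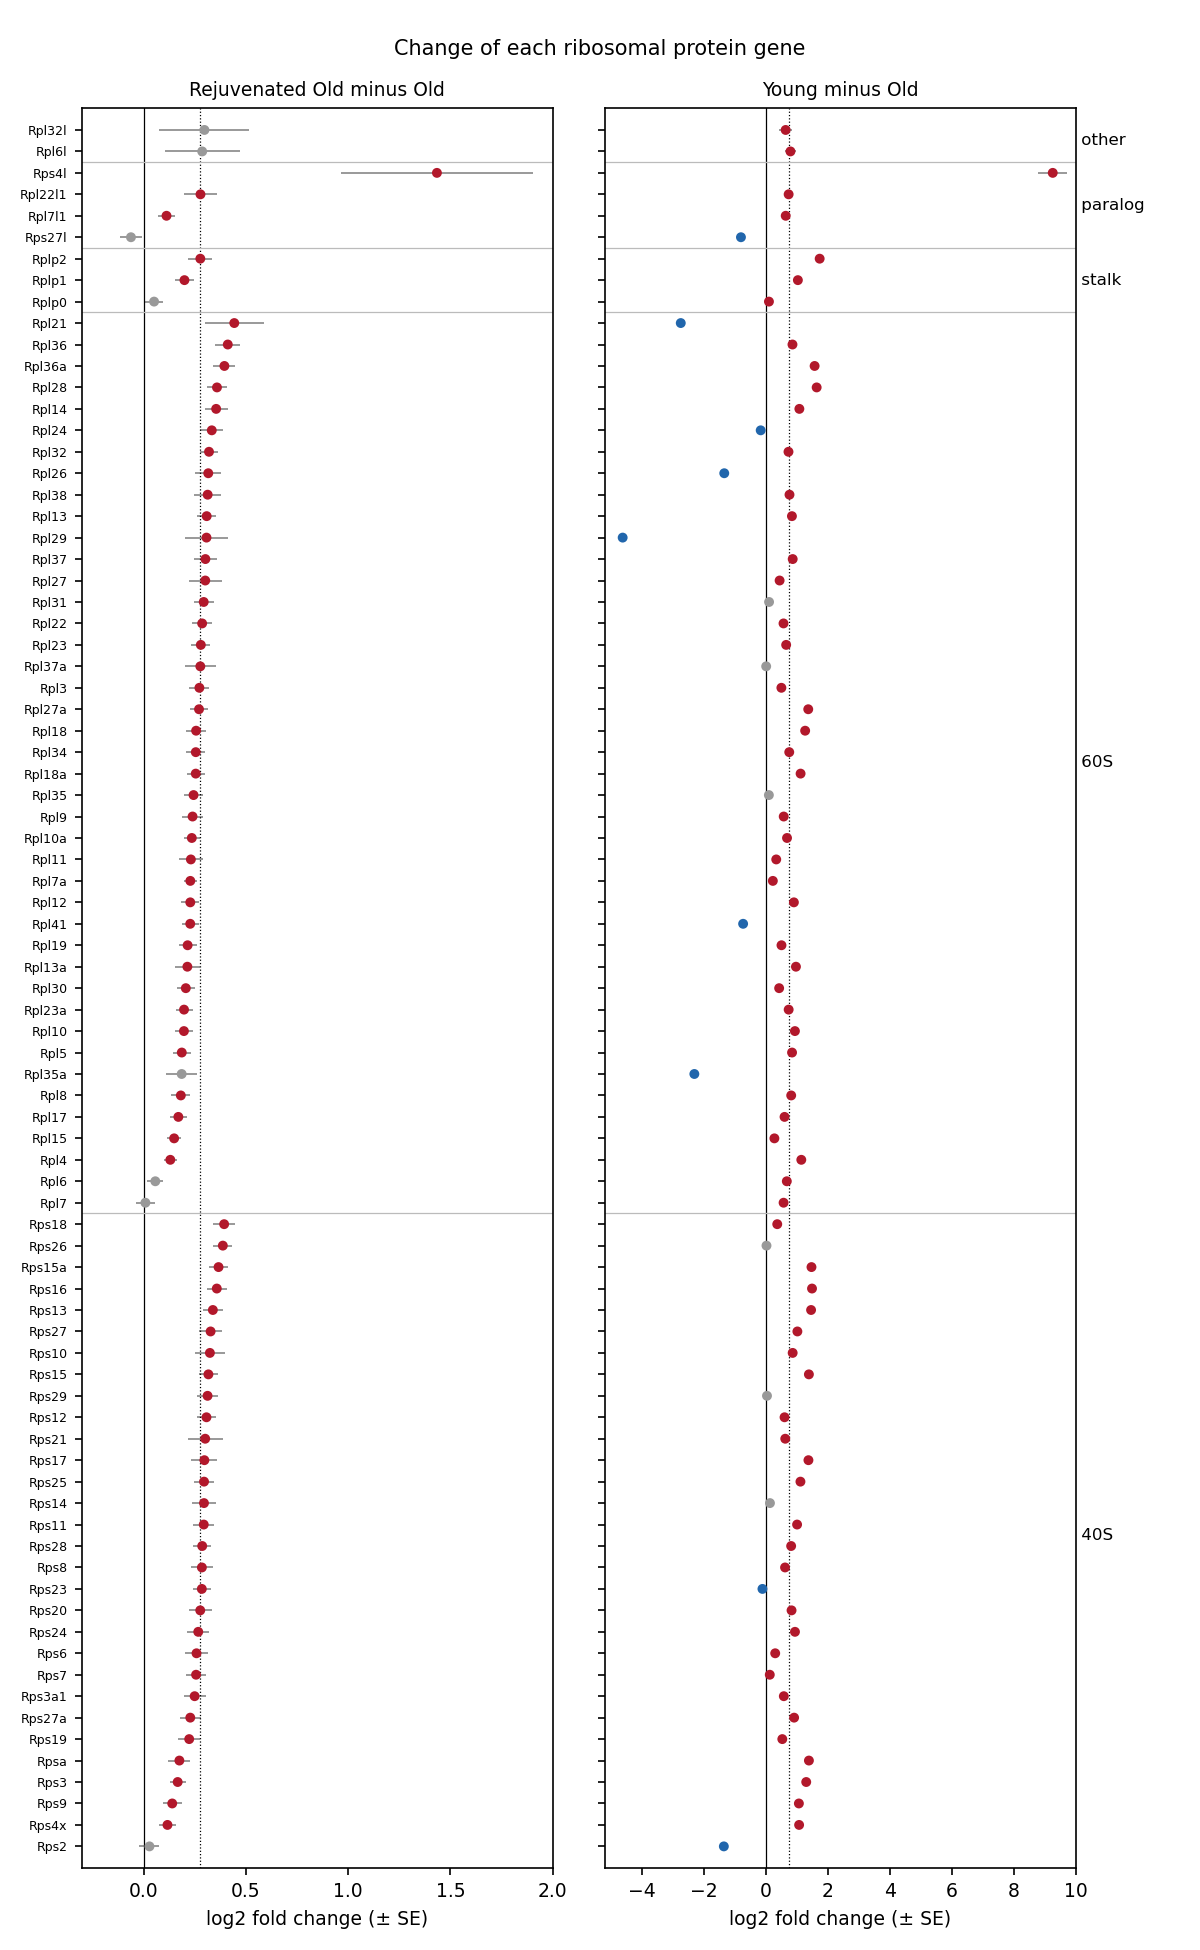
Log2 fold change (± SE) of 81 of the 82 genes in rejuvenated old minus old MSCs (left) and in young minus old MSCs (right), grouped by subunit, with the stalk proteins, diverged copies and other symbols above. Red points are higher and blue points lower at an adjusted p under 0.05 (limma), grey points were not called, and the dotted line is the median of the 82 genes, 0.28 on the left and 0.73 on the right. The axes of the panels differ in scale.

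In the 40S subunit 30 of 31 genes were higher in rejuvenated old MSCs, and the median log2 fold change was 0.29. Rps18, which lies at the head of the small subunit, gave 14268 to 15471 (median 14761) in old and 17126 to 22147 (median 19798) in rejuvenated old libraries (log2 fold change 0.39 ± 0.053 (SE), adjusted p = 3.61e-06). The ranges did not overlap. Rps6, the substrate of the S6 kinases, gave 7869 to 8833 (median 8300.2) and 8399 to 11082 (median 10184) (log2 fold change 0.26 ± 0.055 (SE), adjusted p = 0.000593), and the lowest rejuvenated old library fell within the old range. Rps14 and Rps19, whose loss in humans causes forms of anaemia through failed ribosome assembly, had log2 fold changes of 0.30 ± 0.06 (adjusted p = 0.000442) and 0.22 ± 0.053 (adjusted p = 0.00174). For both the groups did not overlap. Rps27a, made as a fusion with ubiquitin, gave 6470.0 to 7697 (median 6775) and 7299.6 to 8637 (median 8214) (log2 fold change 0.23 ± 0.05 (SE), adjusted p = 0.000873). Rps3, which sits at the mRNA entry and also acts in DNA repair, had a log2 fold change of 0.17 ± 0.039 (adjusted p = 0.00151). Rpsa, also known as the laminin receptor, gave 12369 to 13585 (median 12944) and 11968 to 16199 (median 14723) (log2 fold change 0.17 ± 0.054 (SE), adjusted p = 0.0123), where replicate 6 lay below every old library and the other 5 above. Rps2, which lines the mRNA entry channel, was the one gene of the subunit that was not called, at 10832 to 12121 (median 11541) and 10536 to 12404 (median 11872) (log2 fold change 0.029 ± 0.049 (SE), adjusted p = 0.68). For Rps9, a call with an adjusted p of 0.0212, leaving out old replicate 2 or rejuvenated old replicate 3 gave 0.0515 and 0.0524.

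In the 60S subunit 41 of 45 genes were higher in rejuvenated old MSCs, with a median log2 fold change of 0.25. Rpl21 gave 2767 to 3434 (median 3173) in old and 3634 to 5155 (median 4257) in rejuvenated old libraries (log2 fold change 0.44 ± 0.14 (SE), adjusted p = 0.0166), and Rpl36 gave 5994 to 7592 (median 6676) and 7766 to 10202 (median 8764) (log2 fold change 0.41 ± 0.062 (SE), adjusted p = 1.41e-05). For both the groups did not overlap. Rpl36a, a protein near the exit site for tRNA, gave 5797 to 6645 (median 6511) and 7506 to 9371 (median 8417) (log2 fold change 0.39 ± 0.054 (SE), adjusted p = 4.09e-06), again without overlap. Rpl5 and Rpl11, which with 5S rRNA bind and inhibit Mdm2 when ribosome assembly fails, had log2 fold changes of 0.19 ± 0.044 (adjusted p = 0.00175) and 0.23 ± 0.059 (adjusted p = 0.00319). Rpl13a, which can leave the ribosome to silence inflammatory mRNAs, had one of 0.21 ± 0.062 (adjusted p = 0.00849). Rpl38, needed for the translation of Hox mRNAs in the embryo, gave 4537 to 5310.3 (median 4974) and 5370.5 to 7097 (median 6112) (log2 fold change 0.31 ± 0.065 (SE), adjusted p = 0.000542), without overlap. The 4 genes that were not called were Rpl7 at 0.0087 ± 0.046, Rplp0 at 0.051 ± 0.042, Rpl6 at 0.057 ± 0.038 and Rpl35a at 0.19 ± 0.077 (log2 fold change ± SE), the last with an adjusted p of 0.0578. Rpl35a was called under 9 of 32 alternatives, among them DESeq2, edgeR and the fits without rejuvenated old replicate 1 or 6 (adjusted p from 0.00503 to 0.133 over all of them). Without rejuvenated old replicate 6 Rpl6 and Rplp0 were called as well (adjusted p = 0.043 and 0.0339, limma).

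The stalk of the large subunit, where elongation factors are bound, is made of Rplp0 as its base and of dimers of Rplp1 and Rplp2. These 3 mRNAs did not move by the same amount. Rplp0 gave 29194 to 31151 (median 30242) in old, 27278 to 33293 (median 31879) in rejuvenated old and 30480.3 to 34083 (median 32077) in young libraries. Its log2 fold change was 0.051 ± 0.042 (adjusted p = 0.358) for rejuvenated old and 0.093 ± 0.042 (adjusted p = 0.0457) for young against old MSCs (limma). The second call was lost under 13 of 32 alternatives, 9 of which left out a library, with adjusted p from 7.78e-05 to 0.108. Rplp1 gave 28156 to 30838 (median 29413), 30537 to 37677 (median 33590.4) and 55959 to 65341 (median 59286) in the same order (log2 fold change 0.20 ± 0.047 (SE), adjusted p = 0.00162 for rejuvenated old and log2 fold change 1.03 ± 0.047 (SE), adjusted p = 1.8e-15 for young against old MSCs). Rplp2 gave 7199 to 8604 (median 8240.2), 8655 to 11169.8 (median 9865) and 24163 to 31082 (median 26504) (log2 fold change 0.28 ± 0.059 (SE), adjusted p = 0.000678 and log2 fold change 1.73 ± 0.059 (SE), adjusted p = 7.3e-18). Young libraries were above all others for Rplp1 and Rplp2 and overlapped with the old libraries for Rplp0.

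The size of the rise differed between the rejuvenated old libraries. The median offset of the 82 genes from the mean of the old libraries, on the log2 scale, was 0.17 in replicate 1, 0.26 in replicate 2, 0.32 in replicate 3, 0.31 in replicate 4, 0.43 in replicate 5 and 0.099 in replicate 6. In the old libraries it ran from -0.054 to 0.031 and in the young libraries from 0.63 to 0.84. In replicates 1 to 5, 72 to 77 of the 82 genes exceeded every old library, where 27.3% to 33.3% of all genes did. In replicate 6, 49 genes exceeded every old library and 6 lay below every one, where 29.0% and 29.3% of all genes did. Among the 82 genes the median coefficient of variation was 8.29% over the rejuvenated old, 4.00% over the old and 6.36% over the young libraries. For the other 3049 genes with a mean of at least 2000 it was 5.34%, 3.69% and 3.81%.

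**Figure D3:**
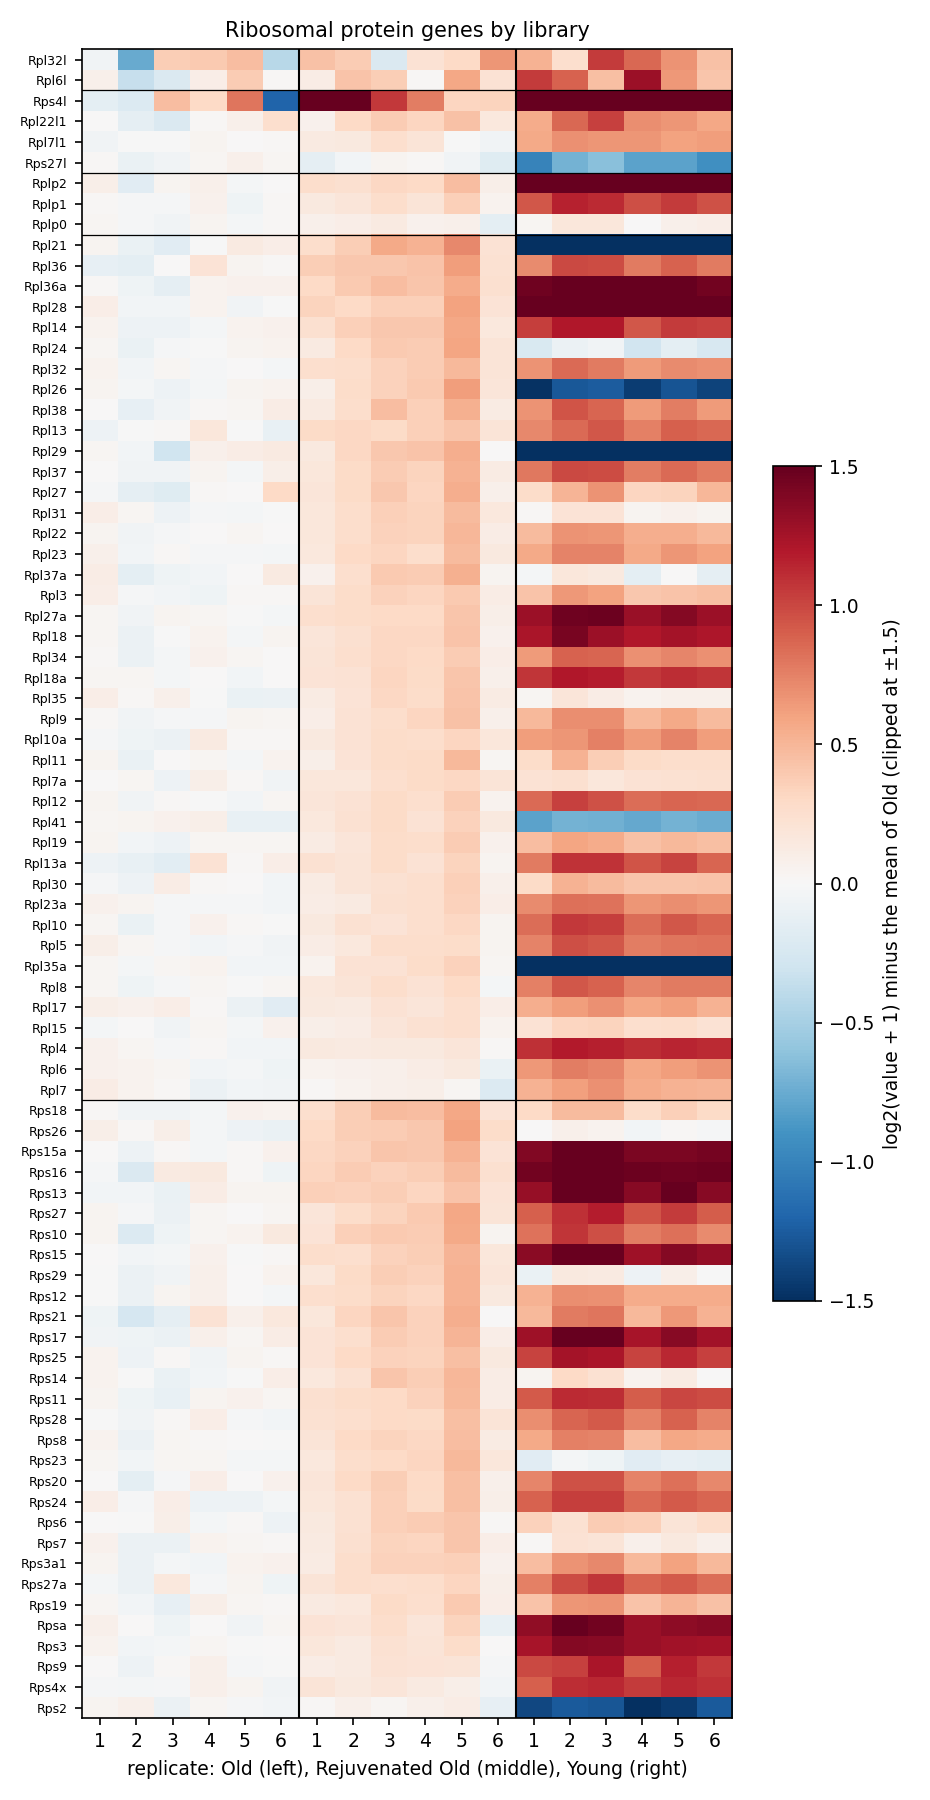
Log2(value + 1) of the same 81 ribosomal protein genes in each library minus its mean over the old libraries, clipped at 1.5 in both directions, with genes in the order of the plot of fold changes. Red is above and blue below the old mean. Rejuvenated old replicate 5 has the strongest and replicate 6 the weakest shift, with median offsets of 0.43 and 0.099, and a few rows are blue in all 6 young libraries.

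The offset moved with transcript length, also among genes outside the ribosome. The 500 other genes tested whose longest annotated transcript was under 1000 bases had a median log2 fold change of 0.10 in rejuvenated old against old MSCs. Those of at least 8000 bases had one of -0.073. With a mean of at least 2000 the short genes had a median of 0.12, and 48.6% of 105 were higher. The 35 ribosomal protein genes under 1000 bases by the same measure had a median of 0.30. Genes with a short coding sequence can fall outside this class, as Rps15a does with 390 coding bases and a longest annotated transcript of 5179. Per library, the short genes outside the ribosome were offset from the old mean by 0.0032 in replicate 1, 0.11 in replicate 2, 0.14 in replicate 3, 0.16 in replicate 4, 0.27 in replicate 5 and 0.0091 in replicate 6. The short ribosomal protein genes lay above these short genes in all 6 rejuvenated old libraries, by 0.10 to 0.22, and in all 6 young libraries, by 0.47 to 0.67. In the old libraries this difference was -0.0087 to 0.020. In replicates 1 and 6, where the other short genes were near the old mean, the short ribosomal protein genes were 0.16 and 0.10 above them. RNA quality was not measured in the files used here, and the part of transcript length in the rise was not tested beyond these values.

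**Figure D4:**
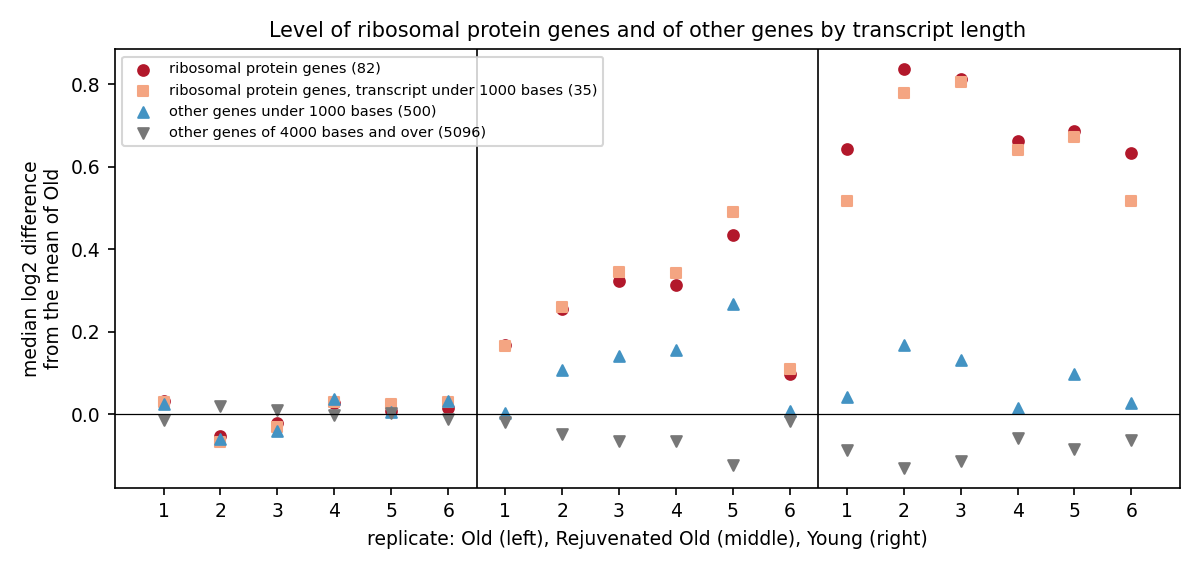
Median log2 difference from the mean of the old libraries in each library, for the 82 ribosomal protein genes, the 35 of them under 1000 bases, 500 other genes under 1000 bases and 5096 other genes of 4000 bases and over. Length is that of the longest annotated transcript of a gene. In the rejuvenated old libraries the short ribosomal protein genes sit 0.10 to 0.22 above the other short genes, and both are highest in replicate 5.

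Young against old MSCs asks how age at isolation shows in the same genes. Of the 82 genes, 67 were higher and 9 lower in young MSCs, where 85.7% of all genes tested were called, 41.6% as higher and 44.1% as lower. The median log2 fold change was 0.73, beside -0.022 over all genes. In 63 genes the young range lay above the old range and in 7 below it, where 35.7% and 38.2% of all genes did (73.9% together). Rps4l passed the limit on the mean through the young libraries, so its place among the 67 and the 63 is a description only. Of the genes whose mean reached 2000, 41.1% were higher. The 40S genes had 26 higher and 2 lower (Rps2 and Rps23) with a median of 0.86, and the 60S genes had 36 higher and 6 lower with a median of 0.67. Both comparisons use the same old libraries, so their values are not independent of each other, and a difference between the sizes in them is given by the comparison of young with rejuvenated old MSCs.

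The largest rises in young MSCs, after Rps4l, were those of 2 genes of the 60S subunit, 1 of the stalk and 1 of the 40S subunit. Rplp2 is given above. Rpl28 gave 5879.6 to 6525 (median 6009) in old and 17742 to 20506 (median 18942) in young libraries (log2 fold change 1.63 ± 0.049 (SE), adjusted p = 6.06e-19), Rpl36a gave 17293 to 20681 (median 18739.7) in young libraries (log2 fold change 1.57 ± 0.054 (SE), adjusted p = 8.12e-18) and Rps16 gave 4551 to 5848 (median 5271) and 14332 to 15748 (median 14614) (log2 fold change 1.48 ± 0.049 (SE), adjusted p = 2.95e-18). In each of them the rejuvenated old libraries lay between, at 7021 to 9244, 7506 to 9371 and 6255 to 7325. Genes picked for their known roles rose by unlike amounts. The log2 fold change was 1.38 ± 0.054 for Rpsa, 1.30 ± 0.039 for Rps3, 0.97 ± 0.062 for Rpl13a, 0.91 ± 0.05 for Rps27a and 0.84 ± 0.044 for Rpl5. It was 0.76 ± 0.065 for Rpl38, 0.52 ± 0.053 for Rps19, 0.33 ± 0.059 for Rpl11 and 0.30 ± 0.055 for Rps6, all of them with adjusted p of at most 3.09e-05. Rps14 was not called (log2 fold change 0.13 ± 0.06 (SE), adjusted p = 0.0577), but it was called higher under 13 of 32 alternatives, DESeq2 and edgeR among them (adjusted p from 0.00105 to 0.159 over all of them).

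A small set of genes was far lower in young than in old MSCs, against the direction of the rest. Rpl29, a protein of the large subunit that is dispensable for life in mice, gave 1002 to 1363 (median 1280.3) in old, 1242 to 1804 (median 1589) in rejuvenated old and 39.1 to 63.7 (median 48.3) in young libraries, with a log2 fold change of -4.63 ± 0.10 for young against old MSCs (adjusted p = 2.03e-21). Rpl21 gave 312 to 713 (median 435) in young libraries (log2 fold change -2.76 ± 0.14 (SE), adjusted p = 2.12e-14). Rpl35a gave 4996 to 5332 (median 5169.8) in old and 774 to 1229 (median 1067) in young libraries (log2 fold change -2.32 ± 0.077 (SE), adjusted p = 4.14e-18). Rps2 gave 3857 to 4799 (median 4585) in young libraries (log2 fold change -1.36 ± 0.049 (SE), adjusted p = 1.66e-17), and Rpl26, which lies near the exit of the peptide tunnel, gave 7525 to 8246 (median 7940.4) and 2834 to 3332 (median 3122) (log2 fold change -1.35 ± 0.063 (SE), adjusted p = 2.54e-15). In these 5 genes the young and old libraries did not overlap. Rps27l and Rpl41 were lower as well, at -0.81 ± 0.052 and -0.74 ± 0.042 (log2 fold change ± SE). Rpl24 (-0.17 ± 0.057, adjusted p = 0.00776) and Rps23 (-0.12 ± 0.043, adjusted p = 0.0146) were lower by little, and their calls were lost under 2 and 4 of 32 alternatives, all of them other scalings (adjusted p up to 0.275 and 0.83). In rejuvenated old against old MSCs, Rpl21, Rpl24, Rpl26, Rpl29, Rpl41 and Rps23 were higher, so that their rejuvenated old means lay further from the young means than the old means did. For Rpl29 that rise (log2 fold change 0.31 ± 0.10 (SE), adjusted p = 0.0205) was not called without old replicate 3 (adjusted p = 0.0622) or rejuvenated old replicate 5 (adjusted p = 0.0571), and over 32 alternatives the adjusted p ran from 0.00122 to 0.0622.

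**Figure D5:**
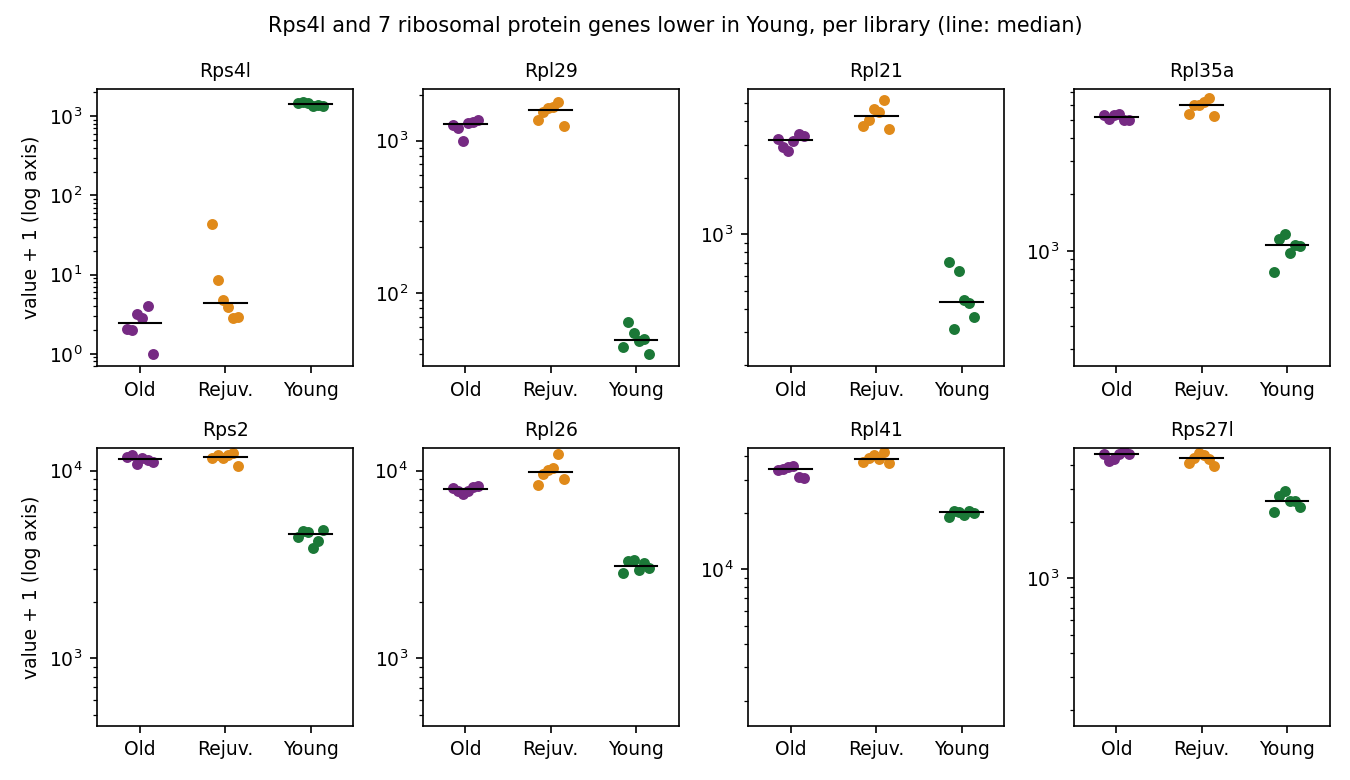
Value + 1 (log axis, whose span differs between panels) in each library of old, rejuvenated old and young MSCs for Rps4l, which was high in the young libraries, and for 7 genes that were lower in young MSCs. Points are libraries and lines are medians. Rpl29 falls from a median of 1280.3 in old to 48.3 in young libraries.

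Rps4l, an annotated transcribed pseudogene of the Rps4x family on chromosome 6, was abundant in young MSCs alone, with few reads elsewhere. It gave 1331 to 1526 (median 1418) in the young libraries and 0 to 3.01 in the old libraries, where 9 reads were found in 5 of the 6. It passed the limit on the mean through the young libraries, so its high level there is a description. The rejuvenated old libraries gave 42.2, 7.55, 3.81, 2.9, 1.86 and 1.89 for replicates 1 to 6, which is 60 reads with 41 of them in replicate 1. That library held 2.99% of the young mean. The log2 fold change of Rps4l in rejuvenated old against old MSCs, 1.43 ± 0.47 (adjusted p = 0.0177), was 0.87 ± 0.30 (adjusted p = 0.0215) without replicate 1. It was not called with a pseudocount of 10 (adjusted p = 0.0628) or in a fit of the 2 groups alone (adjusted p = 0.057), and over the 31 alternatives with a p it ran from 0.00856 to 0.0628. DESeq2 gave no p for it. Rps4x, the copy on the X chromosome, gave 5937 to 6496 (median 6063), 5972 to 7026 (median 6779) and 11409 to 13517 (median 13195) in old, rejuvenated old and young libraries (log2 fold change 0.12 ± 0.042 (SE), adjusted p = 0.0316 and log2 fold change 1.07 ± 0.042 (SE), adjusted p = 1.21e-16). The first of these calls was lost in 8 of the fits without a library (adjusted p from 0.0547 to 0.0722 in those). No coding length was annotated for Rps4l, so the levels of the pair were not compared.

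The other diverged copies differed in how far they moved with their partners. Per kilobase of coding sequence Rps27l, whose mRNA is known as a p53 target, made up 28.0% ± 0.73 of the pair with Rps27 in old MSCs, 23.0% ± 1.5 in rejuvenated old MSCs and 9.92% ± 0.32 in young MSCs (SD, n = 6). The 3 groups did not overlap. Rps27 itself gave 8705 to 9506 (median 9371), 10534 to 13869 (median 11464) and 17256 to 20935 (median 18504) in the same order (log2 fold change 0.33 ± 0.057 (SE), adjusted p = 8.16e-05 and log2 fold change 1.01 ± 0.057 (SE), adjusted p = 9.63e-14). Rps27l gave 4204 to 4753 (median 4585), 3969 to 4632 (median 4351) and 2247 to 2915 (median 2584) (log2 fold change -0.062 ± 0.052 (SE), adjusted p = 0.365 for rejuvenated old against old MSCs), and it was the one gene of the 82 whose fold change was below 0 there. Rpl36al made up 15.5% ± 1.1 of the pair with Rpl36a in old MSCs, 14.1% ± 0.46 in rejuvenated old MSCs and 6.08% ± 0.30 in young MSCs. Rpl22l1 made up 20.4% ± 1.7, 20.3% ± 0.70 and 22.3% ± 1.3 of its pair with Rpl22, and Rpl7l1 made up 17.9% ± 1.1, 18.9% ± 0.74 and 18.6% ± 0.52 of its pair with Rpl7. For Rpl22l1 the young range (21.2% to 24.8%) lay above the rejuvenated old range (19.3% to 20.9%), and the old range overlapped with both. For Rpl7l1 the ranges of all groups overlapped. The log2 fold changes against old MSCs were 0.28 ± 0.081 (rejuvenated old) and 0.73 ± 0.081 (young) for Rpl22l1, beside 0.29 ± 0.05 and 0.56 ± 0.05 for Rpl22. They were 0.11 ± 0.04 and 0.64 ± 0.04 for Rpl7l1, beside 0.0087 ± 0.046 and 0.57 ± 0.046 for Rpl7. The rise of Rpl7l1 (adjusted p = 0.0298) was not called without old replicate 1 or rejuvenated old replicate 2, 3 or 4 (adjusted p from 0.0593 to 0.087).

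The copies known from testis or muscle were at or near 0 reads. Rpl10l had 0 reads in the 18 libraries, which allows up to 3 reads in a library, while Rpl10 gave 11876 to 13259 (median 12771) in old, 13036 to 15771 (median 14773) in rejuvenated old and 22731 to 26520.0 (median 23809) in young libraries (log2 fold change 0.20 ± 0.046 (SE), adjusted p = 0.00148 and log2 fold change 0.93 ± 0.046 (SE), adjusted p = 7.32e-15). Rpl39l had 1 read in old and 3 in rejuvenated old libraries. Rpl3l had 19 reads in old, 32 in rejuvenated old and 21 in young libraries, beside values of 17366 to 19420.0 (median 18139.5) for Rpl3 in old libraries (log2 fold change 0.27 ± 0.049 (SE), adjusted p = 0.000116 and log2 fold change 0.49 ± 0.049 (SE), adjusted p = 2.68e-09). Rpl39 encodes a small protein of the exit tunnel and had 13 reads in old, 19 in rejuvenated old and 20 in young libraries, far below every other gene of the subunit. Ribosomal protein genes have many processed copies in the genome. How reads that match several places were treated is not given in the sources used here, so the levels of Rpl39, and of any gene with close copies, are uncertain. Of 36 rows named as such copies, 13 had a mean of at least 10, and together they came to 0.316% to 0.415% of the sum of the 82 genes. The pseudogene Rpl6l lay at 11.8 to 20.1 in old, 15.5 to 23.3 in rejuvenated old and 20.6 to 38.5 in young libraries, and Rpl32l at 8.86 to 22.1, 13.3 to 25.5 and 18.9 to 33.5. Both were called higher in young against old MSCs and neither in rejuvenated old against old MSCs.

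Young against rejuvenated old MSCs gives what remained between the groups. Of the 82 genes, 59 were higher and 16 lower in young MSCs, where 85.6% of all genes were called, 41.5% as higher and 44.1% as lower, and the median log2 fold change was 0.47. The young range lay above the rejuvenated old range for 53 genes and below it for 11, where 34.0% and 36.5% of all genes did (70.5% together). Rps4l is among the 59 and the 53, again as a description only. Of the genes whose mean reached 2000, 42.4% were higher. By group means, 64 genes were ordered old, rejuvenated old, young, from low to high. In 9 genes the rejuvenated old mean exceeded the young mean, which exceeded the old one (Rpl31, Rpl35, Rpl37a, Rpl7a, Rps14, Rps18, Rps26, Rps29 and Rps7). In 8 the young mean was lowest and the rejuvenated old mean highest (Rpl21, Rpl24, Rpl26, Rpl29, Rpl35a, Rpl41, Rps2 and Rps23). Among the 82 genes, Rps27l alone had a rejuvenated old mean between a high old and a low young mean. Neighbouring groups in these orders did not always differ. No difference between young and rejuvenated old MSCs was called for Rps18 (log2 fold change -0.033 ± 0.053 (SE), adjusted p = 0.571), Rps6 (log2 fold change 0.037 ± 0.055 (SE), adjusted p = 0.534), Rpl11 (log2 fold change 0.10 ± 0.059 (SE), adjusted p = 0.127) and Rplp0 (log2 fold change 0.042 ± 0.042 (SE), adjusted p = 0.357). Scaling the libraries to the same total called all but Rps18 of these as higher in young MSCs (adjusted p = 0.0271 for Rps6, 0.0044 for Rpl11 and 0.00445 for Rplp0), and Rpl11 was called without rejuvenated old replicate 5 (adjusted p = 0.00927). Rps26 rose by 0.39 ± 0.047 in rejuvenated old MSCs and differed by 0.014 ± 0.047 between young and old MSCs (adjusted p = 0.79). Rps29, with 0.31 ± 0.053 and 0.03 ± 0.053 (adjusted p = 0.606), moved in a like way, and both were lower in young than in rejuvenated old MSCs (adjusted p = 1.35e-07 and 4.12e-05).

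Levels between genes were compared per kilobase of coding sequence. Among the 76 tested genes of both subunits the quartiles were 12500 and 29860 for old MSCs, 15030 and 33850 for rejuvenated old MSCs, and 21220 and 49690 for young MSCs (group means of normalized counts per kilobase). Ranked by the mean of all 18 libraries, Rpl41, whose product is among the shortest proteins known, led with 241633 in old and 282868 in rejuvenated old MSCs, at 144289 in young MSCs. Rplp1 was next at 86164, 99121 and 175925 in the same order, then Rps29 at 82206, 102357 and 84032. The lowest of all tested genes with a coding length were Rpl29 at 2591, 3216 and 103, Rpl13 at 2872, 3553 and 5123, and Rpl7l1 at 3844, 4164 and 5972. With the longest annotated transcript in place of the coding length, 5 of the 10 highest genes were found again.

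The genes are spread over the genome, and chromosomes 1, 7, 12 and 16 were looked at because whole-chromosome shifts between young and old libraries were known from earlier results. In young against old MSCs the 21 ribosomal protein genes on them had a median log2 fold change of 1.06 and the 2753 other genes there -0.29. On the remaining chromosomes the 61 genes had a median of 0.67 and the 11169 others 0.0068. Chromosome 7 held 14 of them, all called higher (median 1.33), and its other 1018 genes had a median of 0.60. On chromosome 16, Rpl24 and Rpl35a were both lower, and the other 444 genes had a median of -0.75. The pooled medians of the 21 and the 2753 genes weight these chromosomes differently. Taken singly, the median of ribosomal protein genes minus that of other genes was 0.79 on chromosome 1, 0.74 on 7, 0.54 on 12 and -0.50 on 16. Relative to the median of the other genes on its own chromosome, 74 of the 82 genes lay above 0 in young MSCs (median 0.67) and 80 of 82 in rejuvenated old MSCs (median 0.26). In rejuvenated old against old MSCs the medians were 0.28 on those 4 chromosomes and 0.27 on the others, beside 0.015 and 0.0035 for other genes.

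Other genes of translation were described by lists, and the median log2 fold changes given for them in rejuvenated old against old MSCs stand beside 0.0081 over all genes tested. Counts are to be read against the shares of all genes, 21.0% higher and 20.6% lower in rejuvenated old and 41.6% higher and 44.1% lower in young against old MSCs. Fau, Rpl36al and Rack1, which the symbols missed, were higher in rejuvenated old MSCs, with log2 fold changes of 0.29 ± 0.051 for Fau, 0.23 ± 0.06 for Rpl36al and 0.20 ± 0.056 for Rack1, the scaffold at the back of the small subunit head. In young against old MSCs Fau and Rack1 were higher, at 0.81 ± 0.051 and 0.78 ± 0.056, and Rpl36al was not called (log2 fold change 0.062 ± 0.06 (SE), adjusted p = 0.342). Of 20 other mRNAs known for a TOP tract, 9 were higher and 1 lower in rejuvenated old MSCs (median 0.091), led by Snhg1 (0.54 ± 0.045) and Snhg12 (0.47 ± 0.062), host genes of small nucleolar RNAs. In young MSCs 9 were higher and 7 lower, shares near those of all genes. Of 7 tested elongation factors, 4 were higher and 0 lower in rejuvenated old MSCs (median 0.12), led by Eef1b2 (0.17 ± 0.05) and Eif5a (0.16 ± 0.034). Of 27 initiation factors, 12 were higher and 2 lower (median 0.074), led by Eif6 (0.29 ± 0.044), which keeps free 60S subunits apart from 40S subunits, and Eif4g3 (0.28 ± 0.038), with Eif4g1 (-0.10 ± 0.038) and Eif5 (-0.085 ± 0.029) lower. In a fit of old and rejuvenated old MSCs alone 0 initiation factors were lower, while DESeq2 and edgeR gave 3 lower. The fit of these 2 groups and the fit without replicate 1 each called 3 elongation factors as higher. In young MSCs 20 initiation factors were higher and 5 lower.

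Further lists covered the making of ribosomal RNA, the escorts of new ribosomal proteins together with factors of ribosome assembly, and their control. Of 16 genes for RNA polymerase I and early rRNA handling, 11 were higher and 1 lower in rejuvenated old MSCs (median 0.18), led by Nop56 (0.54 ± 0.037), a core protein of the box C/D particles that methylate rRNA, and Dkc1 (0.28 ± 0.078), the pseudouridine synthase, with the polymerase subunit Polr1d lower (-0.16 ± 0.059). Without replicate 6, 0 of these and 0 of the chaperones and assembly factors below were lower. Of 13 tested chaperones of ribosomal proteins and factors of ribosome assembly, 7 were higher and 1 lower (median 0.13). The rises were led by Grwd1 (0.26 ± 0.069) and the assembly factor Nob1 (0.25 ± 0.033), and Heatr3 was lower (-0.17 ± 0.064). Of 19 genes that control TOP mRNAs or phosphorylate Rps6, 3 were higher and 5 lower (median -0.03), again near the shares of all genes. Eif4ebp1, the repressor of cap-dependent initiation under mTOR, rose most (log2 fold change 0.49 ± 0.042 (SE), adjusted p = 4.74e-09) and Rps6ka2 fell most (log2 fold change -0.32 ± 0.07 (SE), adjusted p = 0.00085), while Larp1 stood at -0.03 ± 0.05 and Mtor at -0.0051 ± 0.036. Of 11 tested genes of ribosome rescue and the Mdm2 checkpoint, 5 were higher and 1 lower in rejuvenated old MSCs (median 0.059), led by Pelo (0.38 ± 0.066), which splits stalled ribosomes. Mdm2 was lower (-0.11 ± 0.029). In young against old MSCs 3 were higher and 7 lower, with Mdm2 at -2.95 ± 0.029 and Cdkn1a at -2.90 ± 0.035. Of 12 proliferation genes, 4 were higher and 0 lower in rejuvenated old MSCs (median 0.20), with 6 higher without replicate 6 and 3 without replicate 1, and 3 were higher and 7 lower in young MSCs. Where a list had 0 lower, limma at an unadjusted p under 0.05 gave 0 as well, and so did DESeq2 and edgeR at an adjusted p under 0.05. In these, 4 elongation factors and 3 to 6 proliferation genes were higher.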

How the data were processed

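The 18 RNA libraries were made after poly(A) selection with a stranded kit and sequenced. The authors aligned reads to mm10 with HISAT2, counted them with featureCounts and normalized them with DESeq2, and deposited one table of normalized counts, a signal in reads divided by 1 size factor per library. Versions, the strand setting and the treatment of reads with several matches are not given in the sources used here. Whole reads were recovered from every value. Differences were tested with limma 3.58.1 on log2(value + 1), with a mean variance trend and all 3 groups in one fit over 14353 genes (mean of 10 or more over the libraries), and adjusted by the Benjamini-Hochberg method. DESeq2 1.42.0 and edgeR 4.0.16 (R 4.3.3) were run on the recovered reads as alternatives, beside other scalings, pseudocounts and left-out libraries. Scripts were tested on simulated data. Lengths and starts came from GENCODE M21. Genes named were pairs of copies, the 5 largest called changes in each direction for both comparisons with old MSCs, the stalk, 10 with known roles, the 3 highest and lowest per length and those below the limit, and from other lists at most 2 in each direction. The genes and lists were chosen with earlier results of these data known. The main fit did not pair libraries by replicate number. Results of 2 genes are not reported here.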

Additional observations from a re-analysis of the deposited data

Results flagged for a closer look

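Within a group, the highest or lowest library was compared with its neighbour by the gap divided by the group's range. Of 123 groups examined 4 exceeded the limit of 0.625 for 6 libraries (Dixon's 95% value), and chance passes about 1 group in 20. In rejuvenated old MSCs the lowest value of Rpl7 was 12840, in replicate 6, below 14990 in the next library (ratio 0.745), and the lowest of Rplp0 was 27280 in the same library, below 31530 (ratio 0.706). Replicate 6 also had the smallest offset of all 82 genes. For Rps4l the highest rejuvenated old value was 42.2, in replicate 1, above 7.55 (ratio 0.859). In young MSCs the highest value of Rps16 was 15750, in replicate 3, above 14850 (ratio 0.635).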

How the results depend on the processing

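In rejuvenated old against old MSCs the count of genes called higher was 71 to 77 with 1 library left out and 72 to 75 under the other alternatives. Under each, 0 were lower. The median log2 fold change was 0.24 to 0.31 with 1 library left out and 0.19 to 0.28 otherwise. The value of 0.19 is the median of ribosomal protein genes under 1000 bases minus that of other genes under 1000 bases. Quantile normalization gave a median of 0.24 for the 82 genes. In young against old MSCs 65 to 70 genes were higher and 9 lower with 1 library left out (median 0.69 to 0.74), and 65 to 72 and 7 to 9 otherwise. In young against rejuvenated old MSCs 59 to 61 were higher and 16 lower with 1 library left out (median 0.45 to 0.49), and 58 to 65 and 11 to 16 otherwise. Scaling to the same total of all other genes gave a median of 0.83 for young against old and 0.59 for young against rejuvenated old MSCs, and moved the median of all genes from -0.022 to 0.085 and from -0.025 to 0.089. The median for young against rejuvenated old MSCs was 0.56 with the same total and 0.57 with quantile normalization. Under these 3 scalings Rpl7a, at -0.0097 in the same comparison and not called, was higher by 0.11, 0.081 and 0.076. Against other genes under 1000 bases, the short ribosomal protein genes had a median of 0.55 in young against old MSCs. On chromosomes other than 1, 7, 12 and 16 the median relative to other genes was 0.66 in young against old and 0.43 in young against rejuvenated old MSCs. With ribosomal genes that the symbols missed added, the share in old MSCs was 3.25%. By transcript length 5 of the 10 highest genes per length were found again. A tract at the start was found for 22 of 79 genes in any protein-coding GENCODE transcript and for 11 of 76 in the first listed one. In RefSeq, where the check was void, it was found for 14 of the 60 genes with an entry. It lay within 10 bases on either side of the RefSeq start for 36 of them, a wider window than that used for GENCODE. A replicate block gave 75 and 0, 66 and 9, and 59 and 16 genes higher and lower in the 3 comparisons. Libraries of the same number correlated at -0.152 to 0.0736 in their departures from the group means. These values cannot tell whether such libraries shared a culture or a day of preparation. Of the changes of single genes over the alternatives, 42 gained and 31 lost a call, 3 reversed and 3527 kept side and direction. With 1 library left out, 19 gained a call, 30 lost one and 4595 stayed called or stayed not called. The causes were not tested. Depth limits the genes under 10, where a library holds few reads.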
